A study of Mus musculus with 6 samples.

Results

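The genes described here encode ATP-dependent chromatin remodelers outside the SWI/SNF family, together with the partner subunits of their complexes. They were chosen by name, 33 from the ISWI, CHD, NuRD and INO80 type complexes and 3 as other SNF2 type ATPases, and all 36 were listed in the deposited table of 20632 genes. Remodelers use ATP to slide, eject or exchange nucleosomes. ISWI motors space nucleosomes into regular arrays, CHD motors carry chromodomains that read histone tails, the NuRD complex joins a CHD motor to histone deacetylases, and the INO80 type motors move or exchange the histone variant H2A.Z. In striated muscle the NuRD motor Chd4 is known for keeping the skeletal and cardiac programmes apart, and Chd2 is known as a partner of MyoD in the activation of muscle genes.

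The study removed Baf155, a core subunit of the SWI/SNF remodeler encoded by *Smarcc1*, from muscle fibres. Baf155ΔMF mice (MCK-Cre; Baf155 f/f, given in the labels as Baf155 -/-) were compared with Baf155WT controls, labelled wild type, that carried the same floxed alleles without Cre, and all 6 mice were C57BL/6 males aged 3 months and not exercised. Each genotype was represented by 3 mice, with 1 total RNA library per mouse from whole hind limb muscles. The MCK promoter drives Cre in differentiated skeletal and heart muscle fibres, so blood vessel, connective tissue and immune cells of the sample kept Baf155, and in such bulk RNA fewer cells of a type and less RNA per cell cannot be told apart. The question asked here is which of these remodelers adult muscle expressed, and whether their levels differed once Baf155 was deleted.

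The total count per mouse ranged from 8426022 to 12469335, and a floor of 3 counts corresponded to between 0.229 and 0.351 CPM (TMM-scaled counts relative to library size), which covers counting error only. *Smarcc1* was 23.4, 19.5 and 16.95 CPM in Baf155WT mice 1 to 3 and 7.05, 6.54 and 7.72 CPM in Baf155ΔMF mice 1 to 3 (log2 fold change -1.49, edgeR adjusted p = 0.00907). All 10 markers of muscle fibres passed the filter on low counts, and none was at 0. The sample titles began with MS13 in Baf155WT mouse 1 and Baf155ΔMF mice 1 and 2, with MS15 in Baf155WT mice 2 and 3, and with MS14 in Baf155ΔMF mouse 3, and the labels do not say what these prefixes stand for. On the first principal component (43.3% of the variance) the MS15 mice lay at 25.0 and 22.5, and the other 4 mice lay between -17.1 and -1.56. The MS15 mice were thus apart from the Baf155WT mouse with MS13 as well as from the Baf155ΔMF mice. On the second component (17.7% of the variance) Baf155ΔMF mouse 3, with MS14, lay at 24.2. All other mice lay between -7.82 and -0.0116 there. No Baf155ΔMF mouse carried MS15, so between the MS15 mice and the Baf155ΔMF mice prefix and genotype cannot be told apart. For this reason the values within MS13, 2 Baf155ΔMF mice against 1 Baf155WT mouse with no test, are given beside the results.

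Adult hind limb muscle expressed nearly the whole set. In all 6 mice 35 of the 36 genes were at 1 CPM or more, and 30 were at 10 CPM or more. Of all genes in the table, 11442 (55.5%) reached 1 CPM in all 6 mice. Divided by the length of the longest annotated transcript, the median gene of the set was at 4.98 CPM per kb, next to 4.77 CPM per kb over all genes tested, and its percentile among them was 51.8 (range 15.3 to 92.4). The 36 genes together took 0.145% of all counts in Baf155WT muscle and 0.150% in Baf155ΔMF muscle.

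The histone chaperone *Rbbp7*, shared by NuRD and other histone-modifying complexes, headed the order at 43.4 ± 2.11 CPM per kb (mean ± SD over 6 mice). It was followed by the methyl-DNA-binding NuRD subunit *Mbd2* (19.8 ± 1.27), the *Rbbp7* paralog *Rbbp4* (18.4 ± 0.669), the NuRD motor *Chd4* (17.3 ± 0.871), the deacetylase *Hdac2* (15.2 ± 0.788) and the AAA+ helicase *Ruvbl1* (14.2 ± 0.693), all in CPM per kb. The ISWI motor *Smarca5* reached 12.97 ± 1.15 CPM per kb, and *Mbd3*, *Baz1b*, *Ruvbl2* and *Mta2* lay between 11.3 and 12.6 CPM per kb. At the low end stood *Smarca1* at 1.75 ± 0.468 and the ISWI partner *Baz1a* at 1.05 ± 0.143 CPM per kb. *Hells*, a SNF2 type ATPase that supports DNA methylation and is known from dividing cells, had 5, 8 and 5 counts in Baf155WT mice and 5, 7 and 3 counts in Baf155ΔMF mice. It was the one gene of the set that the filter on low counts removed. Between neighbours in this order the ranges over the 6 mice overlapped in 32 of 35 cases, and the exceptions were the steps from *Rbbp7* to *Mbd2*, from *Mta2* to *Chd2* and from *Baz1a* to *Hells*. Some counts of *Rbbp4* (6 mice), *Rbbp7* (5 mice), *Rsf1* (4 mice) and *Mta3* (1 mouse) were not whole numbers, so reads shared with similar sequences were divided by estimation and these levels are uncertain. In GENCODE M21 *Rbbp4*, *Rbbp7* and *Ruvbl2* overlap the protein-coding genes *Sync*, *Txlng* and *Gys1* on the opposite strand, and whether the counting used strand is not given in the sources used here.

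**Figure D1:**
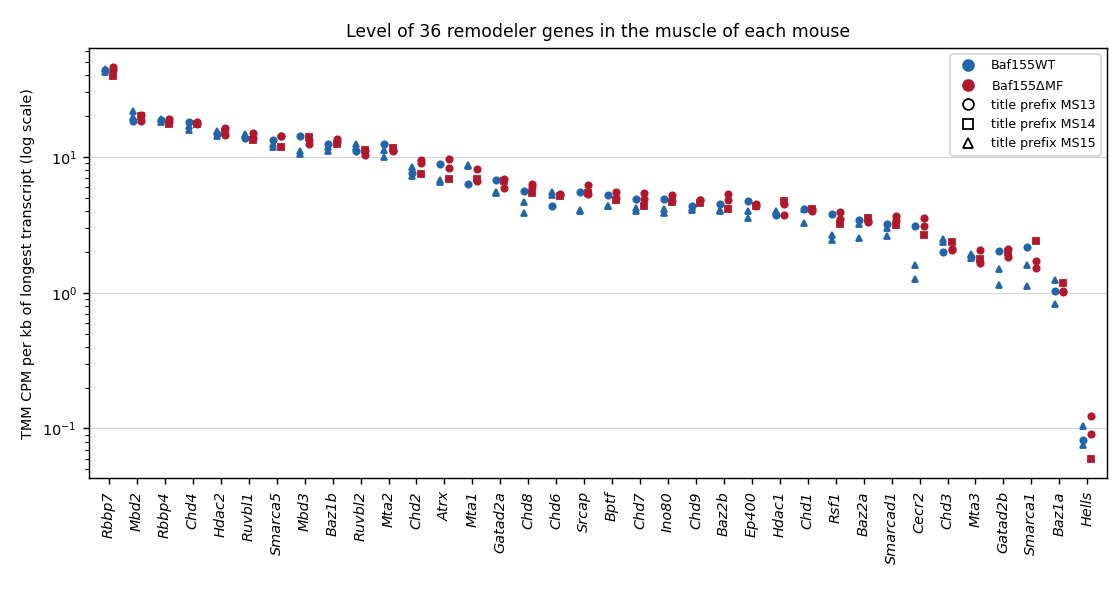
TMM CPM per kb of the longest transcript (log axis) of the 36 genes, 1 point per mouse, with Baf155WT in blue, Baf155ΔMF in red and the title prefix as the marker shape. *Rbbp7* lies above all others, *Hells* lies far below them, and the 2 colours overlap for almost every gene, with the MS15 mice low for *Cecr2*, *Rsf1* and *Gatad2b*.

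By family, the 11 NuRD partners supplied 48.9% of the summed level per kb, the 7 ISWI partners 10.96%, the 2 RUVBL helicases 8.80%, and the 2 NuRD motors *Chd3* and *Chd4* 6.74%. The 4 genes of CHD subfamily III (*Chd6*, *Chd7*, *Chd8* and *Chd9*), large CHD proteins that include the CHARGE syndrome gene *Chd7*, added 6.73%. The ISWI motors added 5.07%, the motors *Ino80*, *Srcap* and *Ep400* 4.80%, *Chd1* with *Chd2* 4.19%, and *Atrx*, *Smarcad1* and *Hells* 3.82%. The summed level of NuRD partners was 141 ± 4.57 CPM per kb in Baf155WT and 142.5 ± 3.45 CPM per kb in Baf155ΔMF muscle (SD, n = 3). The sum of the RUVBL helicases was 26.1 ± 1.30 and 24.95 ± 0.442 CPM per kb, and that of CHD subfamily III was 18.3 ± 0.877 and 20.8 ± 1.15 CPM per kb.

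Most of the genes have promoters rich in CpG dinucleotides, a feature that the choice by name did not use. RefSeq promoters on GRCm38.p6, from 250 bases before to 50 bases after the start, were matched to 26 of the 36 genes (31 promoters), and those of *Hdac1*, *Chd7*, *Mbd2*, *Chd1*, *Cecr2*, *Chd2*, *Rsf1*, *Mta3*, *Baz1a* and *Chd3* were not used here. They held a median of 25 CpG dinucleotides, against 20 in the 12035 promoters of genes tested in this muscle and 7 in all 32851 promoters, and their median GC content was 64.67% against 60.67% and 52.67%. At least 15 CpG dinucleotides were present in 25 of the 31 promoters (80.65%) and in 66.48% of the promoters of tested genes. The GC box of SP1, searched as GGGCGG on both strands, was found in 26 of the 31 promoters (83.87%), in 61.89% of the promoters of tested genes and in 35.66% of all promoters. The core of ETS factors, CCGGAAG, was in 9.68% of the set against 16.75% of the promoters of tested genes, the MyoD type E-box CAGCTG in 19.35% against 15.69%, and the TATA box TATAAA in 9.68% against 7.37%. These shares are descriptions of letters in a window, and genes with several promoters are counted more than once. The 120 bases just before the annotated start are given as examples for *Mta1*, *Chd4*, *Srcap* and *Ruvbl1*. *Mta1* had the most CpG dinucleotides (50 in its whole window), and *Chd4* was the most abundant SNF2 type motor per kb. *Srcap* was a motor with 1 of the 3 smallest p-values below, and *Ruvbl1* had 11 CpG dinucleotides. The lowest count in the set was 1, in a promoter of *Chd9*. *Chd4* has a further promoter with 29 CpG dinucleotides, against 17 in the promoter shown. CpG dinucleotides are in capitals, the sequences run 5′ to 3′ on the strand of the gene, and the choice was made after values were seen.
*Mta1*, chr12:113098158-113098277, plus strand: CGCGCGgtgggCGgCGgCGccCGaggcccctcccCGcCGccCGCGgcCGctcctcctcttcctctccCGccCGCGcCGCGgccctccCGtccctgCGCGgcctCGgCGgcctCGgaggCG
*Chd4*, chr6:125095861-125095980, plus strand: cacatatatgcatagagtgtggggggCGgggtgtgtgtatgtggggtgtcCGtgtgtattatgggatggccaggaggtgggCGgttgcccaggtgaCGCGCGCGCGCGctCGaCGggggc
*Srcap*, chr7:127511863-127511982, plus strand: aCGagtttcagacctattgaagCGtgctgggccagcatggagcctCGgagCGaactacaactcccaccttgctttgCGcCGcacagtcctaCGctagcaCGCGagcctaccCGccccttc
*Ruvbl1*, chr6:88465289-88465408, plus strand: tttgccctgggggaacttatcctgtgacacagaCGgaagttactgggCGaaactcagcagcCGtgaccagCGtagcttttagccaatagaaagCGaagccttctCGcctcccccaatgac
Within these 120 bases *Mta1* held 24, *Chd4* 11, *Srcap* 10 and *Ruvbl1* 6 CpG dinucleotides.

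Between genotypes, none of the 35 remodeler genes tested passed an adjusted p of 0.05 in edgeR's quasi-likelihood test, and the smallest adjusted p among them was 0.601. Of all 12116 genes tested, 3 passed (0.0248%). At an unadjusted p under 0.05 there were 3 remodeler genes, *Chd8*, *Cecr2* and *Srcap*, of 35, where 7.95% of all genes met that limit (963 genes), and at an unadjusted p under 0.01 there were 0 of 35 and 187 of all genes. DESeq2 and limma-voom also called 0 of the set. The 95% interval of the fold change stayed within 2-fold either way for 34 of the 35 genes and within 1.5-fold for 29 of them, while 69.3% of all genes tested had an interval within 1.5-fold. The gene whose interval reached past 2-fold was *Cecr2*.

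The 3 Baf155WT and 3 Baf155ΔMF values did not overlap for 1 of the 35 genes, *Chd9*, where 10.8% of all genes tested did not overlap (1305 genes). The fitted change was above 0 in 27 genes and below 0 in 8, so 77.1% of the set was higher in Baf155ΔMF muscle in the fit, beside 49.8% of all genes tested. The median log2 fold change was 0.13 for the set and -0.001 for all genes, with a range from -0.12 (*Mta1*) to 0.65 (*Cecr2*). Within MS13 the median log2 fold change of the set was 0.035 and that of all genes 0.0034, with 21 of 35 genes above 0. Single genes moved both ways. *Chd6* (0.30) and *Chd2* (0.28) stood farther above 0 within MS13 than in the fit of all mice. *Mta2* (-0.16), *Mbd3* (-0.15) and *Ep400* (-0.099) were above 0 in the fit and below 0 within MS13. The within-genotype SD of log2 CPM had a median of 0.136 over the set and 0.158 over all genes. The median size of the fitted change, without its sign, was 0.13 in the set and 0.12 over all genes. A difference between means of 3 mice varies less than single mice do, so these sizes cannot be set directly against that SD.

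**Figure D2:**
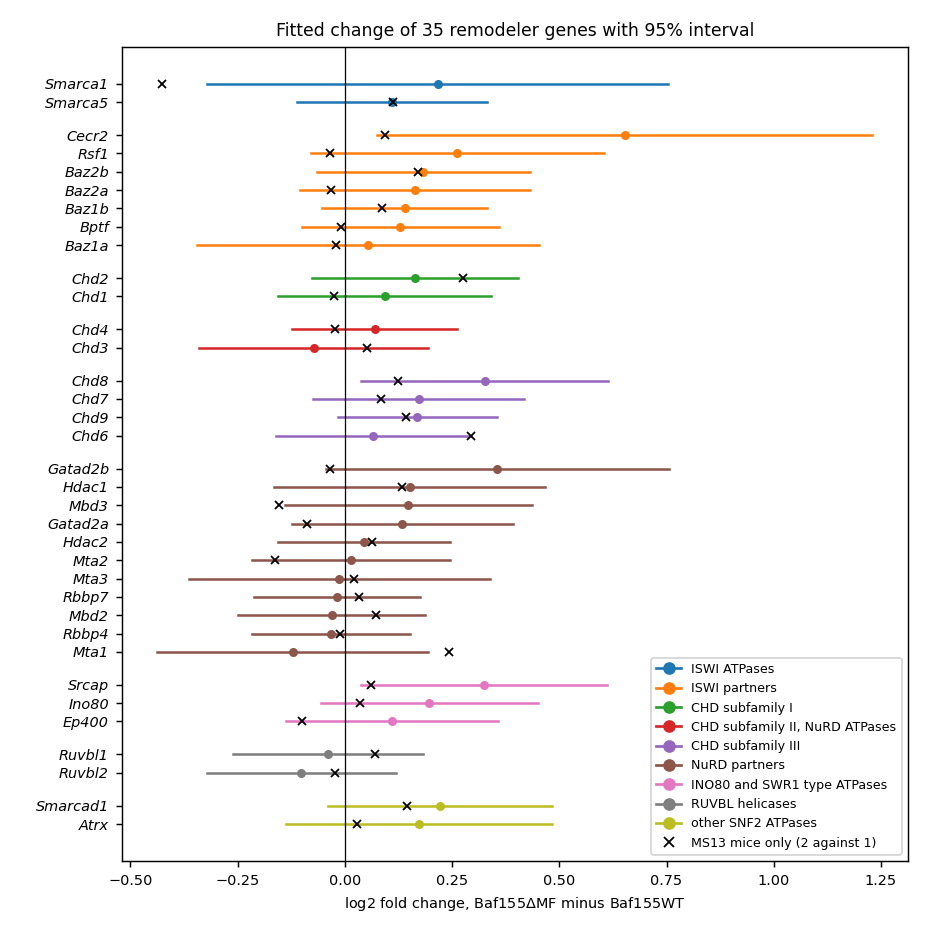
Fitted log2 fold change (Baf155ΔMF minus Baf155WT, x axis) of the 35 genes tested, by family, with the 95% interval as a line and the MS13 mice alone as a cross. The intervals of *Cecr2*, *Chd8* and *Srcap* lie above 0, all others include 0, and the crosses of these 3 genes lie between 0.061 and 0.12.

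The ISWI partners held the gene with the highest fitted change, *Cecr2* (chr6:120666369-120771190 on GRCm38, plus strand), which encodes a bromodomain protein that binds ISWI motors. It was 28.7, 14.8 and 11.7 CPM in Baf155WT mice 1 to 3 and 32.5, 28.8 and 24.7 CPM in Baf155ΔMF mice 1 to 3. The MS15 mice were low and Baf155WT mouse 1 lay among the Baf155ΔMF mice, so the groups overlapped. Its log2 fold change was 0.65 (standard error 0.262, 95% interval 0.075 to 1.23, edgeR unadjusted p = 0.0302, adjusted p = 0.601). Within MS13 it was 0.094, and within Baf155WT the MS13 mouse exceeded the mean of the MS15 mice by 1.096 on the log2 scale. *Rsf1*, the histone-binding partner of *Smarca5*, was 42.1, 27.2 and 29.6 CPM in Baf155WT and 43.6, 38.6 and 35.9 CPM in Baf155ΔMF mice. Here too the MS15 mice were lowest, and the fitted log2 change of 0.26 (standard error 0.155) became -0.034 within MS13.

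*Bptf*, the largest subunit of the NURF complex and a reader of histone methylation, was 63.5, 52.3 and 52.7 CPM in Baf155WT and 66.6, 59.7 and 57.9 CPM in Baf155ΔMF mice. *Baz1b*, which pairs with *Smarca5* in the WICH complex, was 81.0, 72.2 and 76.5 CPM in Baf155WT and 88.2, 83.8 and 80.8 CPM in Baf155ΔMF mice. In both genes the groups overlapped, with log2 fold changes of 0.13 (standard error 0.105) for *Bptf* and 0.14 (standard error 0.0873) for *Baz1b*. The nucleolar remodeling subunit *Baz2a* and its paralog *Baz2b* had log2 fold changes of 0.16 and 0.18, and *Baz1a*, the partner of *Smarca5* in the ACF and CHRAC complexes, had 0.054. All 7 ISWI partners were above 0 in the fit, and 0 passed the test.

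The main ISWI motor *Smarca5* was 80.8, 76.0 and 71.9 CPM in Baf155WT and 86.9, 87.7 and 72.2 CPM in Baf155ΔMF mice. Its paralog *Smarca1* was 10.4, 5.36 and 7.67 CPM in Baf155WT and 7.26, 8.20 and 11.6 CPM in Baf155ΔMF mice. Both genes overlapped between genotypes, and *Smarca1* varied among mice of one genotype by an SD of 0.394 in log2 CPM. The log2 fold changes were 0.11 (95% interval -0.11 to 0.33) for *Smarca5* and 0.22 (95% interval -0.32 to 0.75) for *Smarca1*, and within MS13 *Smarca1* stood at -0.43.

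Among the CHD motors, *Chd4* (chr6:125095981-125130591, plus strand) was 121, 106 and 112 CPM in Baf155WT and 122, 117 and 118 CPM in Baf155ΔMF mice. Baf155WT mouse 1 lay within the narrow Baf155ΔMF range, and the log2 fold change was 0.069 (95% interval -0.12 to 0.26, adjusted p = 0.826 from edgeR). *Chd3*, the other NuRD motor, was 14.6, 18.1 and 17.04 CPM in Baf155WT and 15.2, 15.1 and 17.2 CPM in Baf155ΔMF mice, with a log2 fold change of -0.073. *Chd1*, which reads methylated histone H3 at active genes, and *Chd2* had log2 fold changes of 0.093 and 0.16. For *Chd2* the mice had 69.7, 65.3 and 75.9 CPM in Baf155WT and 81.9, 86.7 and 67.5 CPM in Baf155ΔMF muscle. The Baf155ΔMF mouse with prefix MS14 was among the lowest, and both MS13 Baf155ΔMF mice were the highest.

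CHD subfamily III was above 0 in all 4 genes. *Chd8* (chr14:52198151-52257780, minus strand), a motor known for its part in Wnt signalling and for autism risk in humans, was 48.0, 39.4 and 33.0 CPM in Baf155WT and 53.8, 50.8 and 46.1 CPM in Baf155ΔMF mice. The MS15 mice were lowest, Baf155WT mouse 1 lay within the Baf155ΔMF range, and the log2 fold change was 0.33 (standard error 0.131, 95% interval 0.037 to 0.61, edgeR unadjusted p = 0.0303, adjusted p = 0.601). *Chd9* (chr8:90828352-91054516, plus strand) was 52.4, 50.7 and 48.8 CPM in Baf155WT and 57.5, 58.1 and 55.1 CPM in Baf155ΔMF mice. All 3 Baf155ΔMF mice were above all 3 Baf155WT mice, with the lowest within-genotype SD of the set (0.0458 in log2 CPM), and the log2 fold change was 0.17 (95% interval -0.016 to 0.35, edgeR unadjusted p = 0.0697, adjusted p = 0.622). It was 0.14 within MS13, and 0.019 once the trend with transcript length described below was removed. *Chd7* was 49.8, 42.8 and 40.7 CPM in Baf155WT and 55.1, 50.5 and 44.3 CPM in Baf155ΔMF mice, and *Chd6* was 45.5, 55.1 and 58.0 CPM in Baf155WT and 55.4, 56.2 and 54.5 CPM in Baf155ΔMF mice. Both overlapped, with log2 fold changes of 0.17 and 0.066.

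The NuRD partners were divided, with 6 above and 5 below 0 in the fit and a median log2 fold change of 0.014. The histone-binding subunits *Rbbp4* and *Rbbp7* had log2 fold changes of -0.032 (95% interval -0.22 to 0.15) and -0.018 (95% interval -0.21 to 0.18), and the deacetylases *Hdac1* and *Hdac2* had 0.15 (95% interval -0.16 to 0.47) and 0.044 (95% interval -0.16 to 0.24). These 4 genes encode the deacetylase and histone-binding subunits of the complex, and each overlapped between genotypes. *Mta1*, a scaffold subunit, was 17.8, 24.6 and 24.3 CPM in Baf155WT and 18.9, 23.2 and 19.3 CPM in Baf155ΔMF mice. Like *Chd3* and *Chd6*, and unlike *Cecr2*, *Rsf1* and *Chd8*, it was higher in the MS15 mice than in Baf155WT mouse 1, and its log2 fold change of -0.12 (standard error 0.143) stood at 0.24 within MS13. Its paralogs *Mta2* and *Mta3* had log2 fold changes of 0.014 and -0.013.

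*Gatad2b*, which bridges the motor to the deacetylase part of NuRD, was 15.1, 11.2 and 8.48 CPM in Baf155WT and 15.7, 13.7 and 14.9 CPM in Baf155ΔMF mice. Baf155WT mouse 1 lay within the Baf155ΔMF range and both MS15 mice below it, and the fitted log2 change was 0.36 (standard error 0.182, edgeR's adjusted p = 0.626) overall and -0.035 within MS13. *Gatad2a* had a log2 fold change of 0.13, and the methyl-DNA-binding subunit *Mbd2* and its paralog *Mbd3* had -0.031 and 0.15. *Mbd3* was 23.7, 17.5 and 18.3 CPM in Baf155WT and 20.6, 22.0 and 23.2 CPM in Baf155ΔMF mice, and the highest value belonged to Baf155WT mouse 1.

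Of the motors that handle H2A.Z, *Srcap* (chr7:127511983-127561219, plus strand) was 58.8, 43.4 and 42.3 CPM in Baf155WT and 65.9, 56.8 and 57.8 CPM in Baf155ΔMF mice. The MS15 mice were lowest and Baf155WT mouse 1 lay within the Baf155ΔMF range. Its log2 fold change was 0.32 (standard error 0.130, 95% interval 0.036 to 0.61, edgeR unadjusted p = 0.0306, adjusted p = 0.601), and 0.061 within MS13. *Srcap* overlaps 2 antisense genes and a gene model on its own strand in GENCODE M21, and reads of these genes could not be told apart here. *Ino80* was 31.1, 26.3 and 24.4 CPM in Baf155WT and 33.4, 30.3 and 29.8 CPM in Baf155ΔMF mice, and *Ep400*, the motor of the TIP60 complex, was 50.8, 42.8 and 37.8 CPM in Baf155WT and 48.4, 46.5 and 46.8 CPM in Baf155ΔMF mice. Both overlapped, with log2 fold changes of 0.20 (95% interval -0.056 to 0.45) and 0.11 (95% interval -0.14 to 0.36).

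*Ruvbl1* and *Ruvbl2*, the helicases built into all 3 of these complexes, were both below 0 in the fit. *Ruvbl1* was 22.9, 24.5 and 24.9 CPM in Baf155WT and 25.0, 23.2 and 22.2 CPM in Baf155ΔMF mice, and *Ruvbl2* was 25.5, 27.3 and 28.6 CPM in Baf155WT and 23.9, 26.2 and 25.8 CPM in Baf155ΔMF mice. Their groups overlapped, with log2 fold changes of -0.040 (95% interval -0.26 to 0.18) and -0.10 (95% interval -0.32 to 0.12). *Atrx*, an SNF2 type ATPase that places histone H3.3 in repeats, was 90.4, 67.0 and 69.8 CPM in Baf155WT and 85.8, 98.5 and 71.1 CPM in Baf155ΔMF mice. *Smarcad1*, which is known for keeping silent chromatin through replication, was 16.5, 15.5 and 13.5 CPM in Baf155WT and 18.9, 17.6 and 16.4 CPM in Baf155ΔMF mice. Both overlapped, with log2 fold changes of 0.17 and 0.22.

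**Figure D3:**
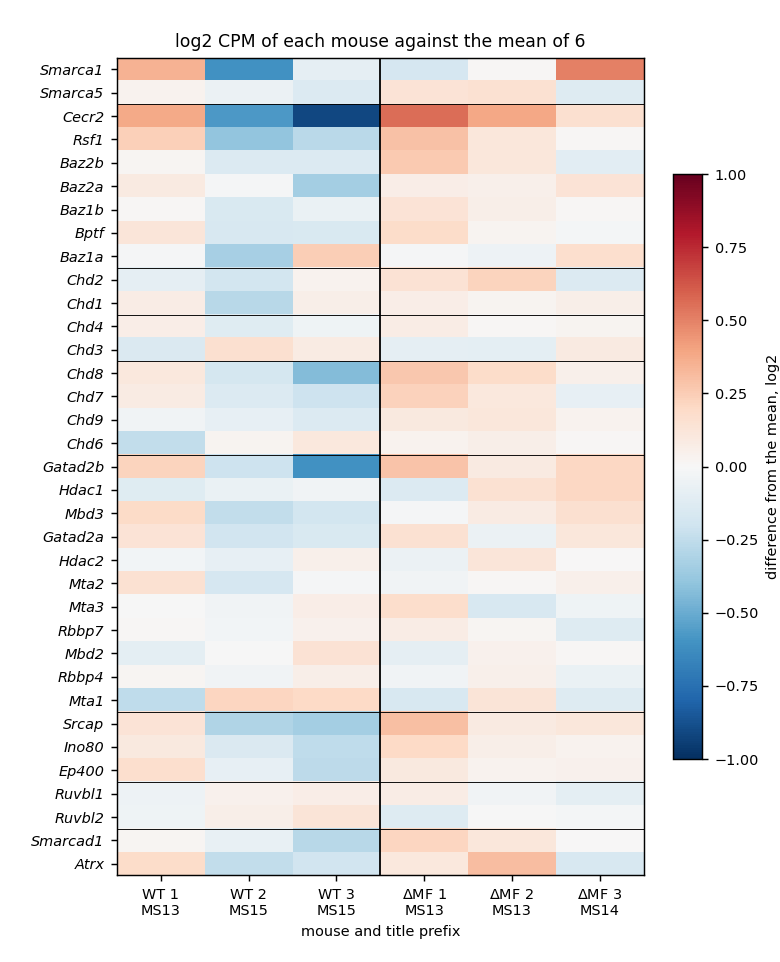
Difference of each mouse from the mean of 6 mice in log2 CPM (colour, from -1 to 1) for the 35 genes tested, in rows by family, with mice and title prefixes in columns. The columns of the MS15 Baf155WT mice are blue for many large motors and ISWI partners, most of all *Cecr2*, and the column of Baf155WT mouse 1 has mostly the colours of the Baf155ΔMF columns for these genes.

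Of the single mice, leaving out Baf155WT mouse 1 changed the number of calls most. Without it, 5 genes of the set passed an adjusted p of 0.05 in edgeR, all higher in Baf155ΔMF muscle, where 7.77% of all genes passed (955 of 12288). By edgeR they were *Cecr2* (log2 fold change 1.11, adjusted p = 0.000626), *Srcap* (0.49, adjusted p = 0.0081), *Chd8* (0.47, adjusted p = 0.0174), *Rsf1* (0.47, adjusted p = 0.0184) and *Gatad2b* (0.58, adjusted p = 0.0292). In that comparison 20 of the 36 genes did not overlap, where 39.3% of all genes tested did not, and all Baf155WT mice carried MS15, so genotype and prefix cannot be told apart. Within Baf155WT, the MS13 mouse was above the mean of the MS15 mice in 25 of 35 genes (48.7% of all genes), with a median difference of 0.15 on the log2 scale for the set and -0.0086 for all genes. This gap between control mice was larger than the fitted genotype difference in 25 of 35 genes, where that was so for 66.2% of all genes. The gap rested on fewer mice than the genotype difference and so carried more noise. Leaving out any other mouse gave 0 calls in the set, with 0 to 5 genes at an unadjusted p under 0.05. The number of genes that did not overlap was then between 1 and 9, and 9 was reached without Baf155ΔMF mouse 3. The share over all genes was not counted for these fits, so the numbers cannot be set against a background.

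Markers of some cell types separated the same mice. The summed level of 5 endothelial markers was 266, 206 and 213 CPM in Baf155WT mice 1 to 3 and between 265 and 289 CPM in Baf155ΔMF mice, with all 5 markers above 0 in the fit and 0 passing the test. The log2 fold changes were 0.32, 0.29 and 0.41 for *Pecam1*, *Cdh5* and *Kdr*, but only 0.039 and 0.011 for *Tek* and *Emcn*. The sum of 5 macrophage markers was 60.6, 190.5 and 156 CPM in Baf155WT mice and between 57.1 and 98.2 CPM in Baf155ΔMF mice, with all 5 below 0. The 10 muscle fibre markers summed to 220600, 189700 and 179500 CPM in Baf155WT and to between 194500 and 222900 CPM in Baf155ΔMF mice. In the fit 5 of them were above and 5 below 0. Among them *Ttn*, the giant protein titin, was 81290, 47540 and 37560 CPM in Baf155WT and between 62960 and 85260 CPM in Baf155ΔMF mice. *Ckm*, *Acta1* and *Tnnt3* went the other way and were highest in the MS15 mice. *Ckm* was 20710, 24470 and 24380 CPM in Baf155WT and between 19360 and 20590 CPM in Baf155ΔMF mice. The order of the muscle fibre sums was thus not shared by all 10 markers. In the sums of these 3 lists both MS15 mice lay outside the range of the other 4 mice. That was also so for 5 smooth muscle markers (789, 605 and 651 CPM in Baf155WT, 748 to 879 CPM in Baf155ΔMF mice), 5 adipocyte markers (26.1, 44.6 and 40.96 CPM, 18.6 to 27.6 CPM) and 10 proliferation genes (37.2, 45.6 and 47.2 CPM, 36.1 to 41.6 CPM). It was not so for red blood cell genes (777, 1227 and 622 CPM in Baf155WT, 370.5 to 805 CPM in Baf155ΔMF mice), fibro-adipogenic progenitor markers (1575, 1954 and 1910 CPM, 1415 to 2148 CPM), Schwann cell markers (71.8, 61.1 and 70.05 CPM, 59.0 to 70.1 CPM) or muscle stem cell markers (24.2, 25.2 and 23.6 CPM, 22.2 to 25.2 CPM), and lymphocyte markers summed to no more than 1.15 CPM in any mouse. Single markers did not all follow these sums. In the progenitor list *Pdgfra*, *Dcn* and *Lum* were higher in both MS15 mice than in the other 4 mice. *Col1a1* and *Col3a1* were not, and both were highest in Baf155ΔMF mouse 3. In the smooth muscle list *Rgs5* (459.5 and 509 CPM, against 574 to 741 CPM) and *Notch3* were lower in both MS15 mice than in the other 4. *Acta2* and *Tagln* of the MS15 mice lay within the range of the other mice. No marker in these lists was at 0 in all mice. Their part in the values of the remodeler genes was not tested.

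Transcript length also moved with the fitted change. The longest transcript of the set had a median of 6.42 kb, against 3.52 kb over all genes tested. Across the 35 genes Spearman's rho between length and log2 fold change was 0.54, and across 11844 genes it was 0.327, and genes are not independent replicates. Of the 16 genes at or over 7 kb, 15 were above 0 in the fit, as were 75.7% of all genes of that length, and of the 19 shorter ones 12 were above 0, as were 47.2% of all shorter genes. The medians for the set were 0.17 and 0.054 on the log2 scale, and those for all genes of the same lengths were 0.12 and -0.013. With the length trend removed sample by sample, the median of the set was 0.041, with 24 of 35 above 0. Length was related in the same way to the gap inside the control group, with a rho of 0.439 over the set and 0.355 over all genes between length and the difference of the MS13 from the MS15 Baf155WT mice. The gap and the fitted change both use the MS15 mice, so these relations with length are not independent. Whether RNA quality differed between the mice was not tested.

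**Figure D4:**
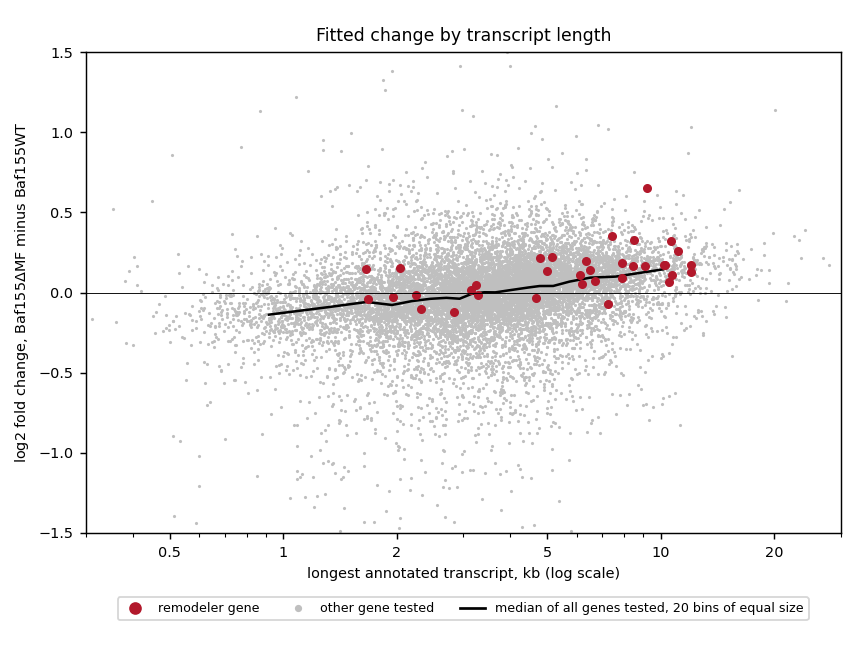
Log2 fold change (Baf155ΔMF minus Baf155WT, y axis) against the longest annotated transcript (log axis, kb) for the 35 remodeler genes in red and the other tested genes in grey, with the median of all genes in 20 bins of equal size as a line. The line climbs from below 0 for short to above 0 for long transcripts and the red points lie around it, *Cecr2* farthest above. Of 11844 genes with a length, 22 lie outside the drawn range.

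Paralogs that can stand for each other in a complex had unequal shares of the RNA in both genotypes. In each mouse the share of the first gene in the summed level per kb of a pair does not depend on the scaling of the library. *Smarca5* made up 88.6 ± 2.96% of the ISWI motor level in Baf155WT and 87.6 ± 3.98% in Baf155ΔMF muscle (SD, n = 3), and *Chd3* made up 11.9 ± 1.797% and 10.9 ± 0.815% of the NuRD motor level. *Hdac1* was 20.7 ± 0.701% and 21.9 ± 1.69% of the pair with *Hdac2*, *Rbbp4* was 29.9 ± 0.114% and 29.7 ± 1.33% of the pair with *Rbbp7*, and *Baz1a* was 8.04 ± 1.33% and 7.64 ± 0.838% of the pair with *Baz1b*. In adult muscle RNA, *Smarca5*, *Chd4*, *Hdac2*, *Rbbp7* and *Baz1b* were thus the larger partners per kb in every mouse.

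The shares of a further 4 pairs were between 32.2 and 62.6% in both genotypes. *Mta1* was 41.2 ± 6.80% and 38.9 ± 2.66% of the pair with *Mta2*, *Mbd2* was 62.6 ± 5.49% and 59.7 ± 0.844% of the pair with *Mbd3*, *Baz2a* was 41.9 ± 3.01% and 41.9 ± 3.82% of the pair with *Baz2b*, and *Chd1* was 33.1 ± 1.94% and 32.2 ± 3.05% of the pair with *Chd2*. *Gatad2a* was 76.9, 78.2 and 82.9% of the pair with *Gatad2b* in Baf155WT mice and 76.4, 76.2 and 76.9% in Baf155ΔMF mice. This was the single pair of 10 whose shares did not overlap between genotypes (4 pairs without Baf155WT mouse 1), and the nearest mice of the 2 groups had 76.93 and 76.92%. Over the 10 pairs, two-sided exact permutation tests gave p-values from 0.1 to 1, with 0.1 as the smallest p that 3 mice against 3 allow, and every p adjusted over the pairs was 1. Without the correction for length, *Rbbp4* was 47.0% of its pair in Baf155WT muscle, and with the length of all exons joined it was 22.8%, so this share depends on the length used. With all exons joined *Baz2a* was 55.9% of its pair in place of 41.9%.

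**Figure D5:**
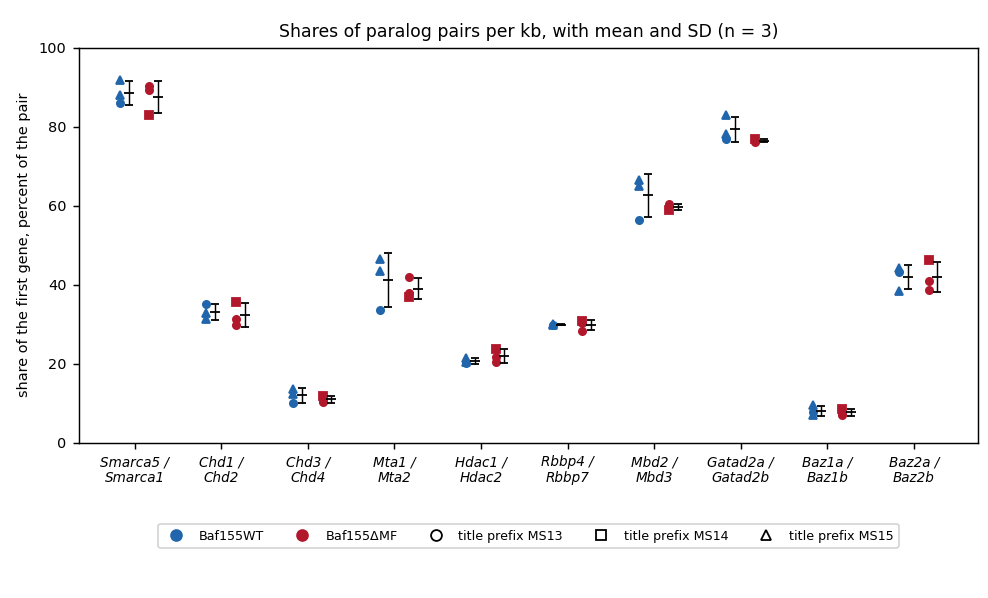
Share of the first gene in the summed TMM CPM per kb of 10 paralog pairs (y axis, percent), 1 point per mouse, with Baf155WT in blue, Baf155ΔMF in red, the title prefix as the marker shape, and the mean with SD (n = 3) in black. The shares run from about 8.04% for *Baz1a* to 88.6% for *Smarca5* in Baf155WT muscle, and the 2 genotypes lie side by side in each pair.

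Other subunits of the same complexes were read from a list of 47 companion genes, of which 43 were tested and 0 passed an adjusted p of 0.05 in edgeR. In the fit 28 were above and 15 below 0, with a median log2 fold change of 0.033. The INO80 companions were above 0 in 9 of 11, the SRCAP and TIP60 companions in 10 of 17, the CHD and NuRD companions in 3 of 4, the other SNF2 type genes in 6 of 9, and the ISWI companions in 0 of 2. The motor *Chd5*, known from brain, was at 0.408 CPM in Baf155WT and 0.396 CPM in Baf155ΔMF muscle (means of 3 mice), next to the floor, and was not tested.

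The companion with the smallest p was *Mbtd1*, a reader of methylated histones in the TIP60 complex, at 10.9, 6.66 and 5.89 CPM in Baf155WT and 12.6, 12.2 and 11.5 CPM in Baf155ΔMF mice. Its groups did not overlap, and its fitted log2 change was 0.64 (standard error 0.204, edgeR unadjusted p = 0.00936, adjusted p = 0.601), with 0.18 within MS13. In the INO80 group it was *Ino80d*, a subunit of that complex, at 42.0, 32.4 and 31.1 CPM in Baf155WT and 45.8, 40.3 and 43.9 CPM in Baf155ΔMF mice, with a log2 fold change of 0.30 (adjusted p = 0.601 from edgeR) that was 0.036 within MS13. *Mbtd1* and *Ino80d* were low in the MS15 mice, as *Cecr2* and *Srcap* were. The smallest p of the other groups belonged to *Shprh* (log2 fold change 0.28), a SNF2 type ubiquitin ligase of DNA repair, *Adnp* (0.24), a partner of *Chd4* in the ChAHP complex, and *Chrac1* (-0.14), a histone-fold subunit of the CHRAC complex, and edgeR's adjusted p was 0.617, 0.666 and 0.722. Without Baf155WT mouse 1, where prefix and genotype cannot be told apart, 4 companions (*Mbtd1*, *Ino80d*, *Adnp* and *Btaf1*) passed an adjusted p of 0.05, beside 7.77% of all genes, the last of them lower in Baf155ΔMF muscle (log2 fold change -0.33).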

How the data were processed

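Total RNA of whole hind limb muscles was sequenced by the authors from 3 Baf155WT and 3 Baf155ΔMF mice, with stranded library kits, and the authors deposited expected counts (estimated counts of reads per gene, not normalized) for 20632 genes listed by symbol. The submitters' processing notes name CASAVA 1.8.2, cutadapt 1.10, Bowtie2 2.2.7, TopHat2 2.1.1, RSEM 1.2.30, limma and the builds mm10 and GRCm38. The annotation and the strand setting of the counting are not given in the sources used here.

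Estimates were first rounded to whole numbers, and the tests ran in edgeR 4.0.16 under R 4.3.3. Low counts were removed by filterByExpr (minimum count 10, minimum total 15), which left 12116 genes. Libraries were scaled by TMM, genotype was the only term of the quasi-likelihood fit, and Benjamini-Hochberg adjustment covered every gene that passed the filter, with 0.05 as the limit. Total counts were between 8426022 and 12469335 per mouse, with a common biological coefficient of variation of 0.111. The mice were separate animals with 1 library each. Levels per kb used the longest transcript in GENCODE M21, and promoters came from RefSeq. The fit was tested on simulated data.

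The genes named are all 36 members, *Smarcc1*, and in each companion group the gene with the smallest p. *Chd5*, *Btaf1*, *Ttn* and the other single markers of cell types were named after their values were seen. Members and lists were chosen with earlier results of these data known. Alternatives were other scalings and filters, DESeq2 1.42.0, limma 3.58.1 with voom, a robust fit, the title prefix as a covariate, the MS13 mice alone, removal of the length trend, and leaving out each mouse. The joined length of all exons was added after the data were examined.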

Additional observations from a re-analysis of the deposited data

How the results depend on the processing

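The 0 calls among the remodeler genes held under every scaling, filter and test tried on all 6 mice. When single mice were left out, calls ranged from 0 to 5 in the set, from 0 to 955 over all genes and from 0 to 4 among companions, and the upper value of each came without Baf155WT mouse 1. Over all genes the 3 calls became 17 without a filter, 22 with DESeq2, 5 with limma-voom and 16 with the title prefix as a covariate. Genes of the set that did not overlap numbered 3 with upper-quartile scaling, 4 with library size only, 2 with the length trend removed and from 1 to 20 with a mouse left out, against 1. Among these alternatives the share over all genes was counted only without Baf155WT mouse 1 (39.3%). The other counts therefore have no background beside them and are not read as results. The median log2 fold change of the set was 0.035 with the prefix as a covariate (0.0352), 0.035 within MS13 (0.0354) and 0.041 with the length trend removed, against 0.13. Scaling by library size only moved it to 0.076 and that of all genes to -0.064. The covariate and MS13 values are the same comparison and do not back each other. MS14 and MS15 each held a single genotype, so with the covariate the genotype difference came from the MS13 mice. Paralog pairs that did not overlap numbered from 1 to 4 with a mouse left out. In 64 of 595 single-gene values the sign of an uncalled log2 fold change differed from that given. *Smarcc1* was below 0 in each of these fits, but edgeR's adjusted p rose to between 0.0533 and 0.0678 without Baf155WT mouse 2, Baf155ΔMF mouse 1 or Baf155ΔMF mouse 2. No paired analysis was possible because the replicate numbers only follow accession order and do not link mice of the 2 genotypes.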
